A study of Bos taurus with 24 samples.

Results

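Differences in subcutaneous fat between cows of high and low gain that held on average over both diets were examined in all 24 arrays of the series. The 2 arrays of each of 12 cows, titled Adipose 1 and Adipose 2, were averaged, and the 12 averages were compared between the High Gain group (6 cows, named here H1 to H6) and the Low Gain group (6 cows, L1 to L6). No array and no cow was left out, and the comparison ran over all measured transcripts rather than over a chosen set. The animals were mature crossbred beef cows that were not pregnant. All of them were first fed a restricted amount and then offered the same ration without limit. Fat was taken from the lumbo-sacral pad at day 105 of restriction and at day 49 of free feeding, and a cow belonged to a gain group by her weight gain during free feeding, as one of the extremes of a larger herd. The titles number the biopsies without naming the diet, so that Adipose 1 is taken here as the restriction sample from the order in the protocol. The average over both biopsies does not depend on that order. The gain groups are not selected lines and their breed makeup was not identical. Intake during free feeding was not fixed, and the authors report that it was greater in the high gain cows. Gain, intake and breed therefore cannot be told apart in these values.

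White fat under the skin stores triglyceride in adipocytes, which take up fatty acids, make new ones from acetate in ruminants, join them to glycerol phosphate and release them again through lipases. Around the adipocytes lies a stroma of progenitor cells and fibroblasts that lay down collagen and other matrix, with blood vessels, macrophages and other immune cells between them. In bulk tissue the signal of a transcript depends both on how much of each cell type is present and on how much RNA a cell makes, and fewer cells of a type and less RNA per cell cannot be told apart here.

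Each value is a log2 signal of a transcript cluster, which is a gene or a predicted gene on the Bovine 1.1ST array, and a difference of 1 is a 2-fold difference. Array medians ran from 8.26 to 8.34 for Adipose 1 and from 7.83 to 7.94 for Adipose 2, and every array was therefore shifted to the common median of 8.10 before averaging. Of 24997 clusters tested, 17776 carried 1 usable gene symbol, and 48 reached the upper end of the scale on at least 1 array, where differences are compressed. Adipocyte markers were plain in every cow, since 15 of 15 lay above the median cluster and the mean of the list ran from 15.6 to 16.3 over the 12 cows. With 6 cows in each group the standard error of a difference had a median of 0.12 over all clusters, with an interquartile range of 0.09 to 0.15.

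No cluster passed an adjusted p under 0.05 for the averaged gain difference in limma (0 of 24997, which is 0%), and the smallest adjusted p was 0.301. The unmoderated one-way test also passed 0. At an unadjusted p under 0.05, 1902 clusters (7.61%) remained, of which 907 had higher values in high gain cows (3.63%) and 995 had lower values (3.98%). Over all clusters the median difference, High Gain minus Low Gain, was -0.01, with an interquartile range of -0.10 to 0.08. Differences described below are therefore measured differences that failed correction over all clusters, ranked by their size relative to the spread between cows.

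The largest departure relative to that spread was in MDGA2, which encodes a membrane-anchored immunoglobulin-domain protein known from synapse formation. Averaged MDGA2 signal in the high gain cows ran from 7.07 through a median of 7.28 to a highest value of 8.06, and in the low gain cows from 8.04 through a median of 9.81 to 10.7. Of the low gain cows only L5 lay within the range of the high gain cows, and the other 5 low gain cows lay above every high gain cow. The difference was -2.35 (standard error 0.35, adjusted p = 0.301 in limma, exact permutation p = 0.00433, two-sided, n = 6 cows each). It was -2.64 at Adipose 1 and -2.06 at Adipose 2. Without cow L5 it was -2.69 with an adjusted p of 0.000373 in limma. One cluster without a gene symbol also passed then, at a difference of -2.43, so that a single cow decides whether 0 or 2 clusters pass. When all 24 arrays were fitted in limma with the cow as a replicate block, 3 clusters passed, MDGA2 (adjusted p = 0.000669), the cluster without a symbol (adjusted p = 0.0282) and NFU1 (adjusted p = 0.032). That fit set the correlation of the 2 arrays of a cow at 0.0853 for every cluster and so took the arrays as nearly separate. For a cluster whose 2 arrays of a cow are closer than that, the p of this fit is too small.

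QPCT, the enzyme that forms pyroglutamate at the N-terminus of secreted peptides, had the largest difference among named genes whose groups did not overlap. Its averaged signal in the high gain cows was 10.4 at the lowest, 11.8 at the median and 12.2 at the highest, and in the low gain cows 12.7, 13.3 and 14.2. Every high gain cow lay below every low gain cow. The difference was -1.77 (standard error 0.33, adjusted p = 0.466 in limma), or 3.42-fold, with -1.42 at Adipose 1 and -2.12 at Adipose 2. For groups of 6 cows that do not overlap, the two-sided exact permutation p of a single gene is 0.00216, which is the smallest that this design can give.

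Among the 24997 clusters, 43 had all high gain cows above all low gain cows (0.172%) and 57 had them all below (0.228%), and 73 of these carried a usable symbol, 31 higher and 42 lower. TTC7B, part of the complex that holds a phosphatidylinositol kinase at the plasma membrane, had averages of 9.44 to 10.2 in high gain and 10.4 to 10.9 in low gain cows, with medians of 9.82 and 10.6. NFU1, which helps to build iron-sulfur clusters for mitochondrial enzymes, ran from 12.5 to 13.1 in the high gain cows, with a median of 12.7. In the low gain cows NFU1 ran from 13.1 to 13.7, with a median of 13.4. The groups did not overlap for either gene, although the highest high gain cow and the lowest low gain cow nearly met for NFU1. The differences were -0.75 (standard error 0.13) for TTC7B and -0.67 (standard error 0.13) for NFU1, with adjusted p of 0.466 and 0.467 in limma.

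**Figure D1:**
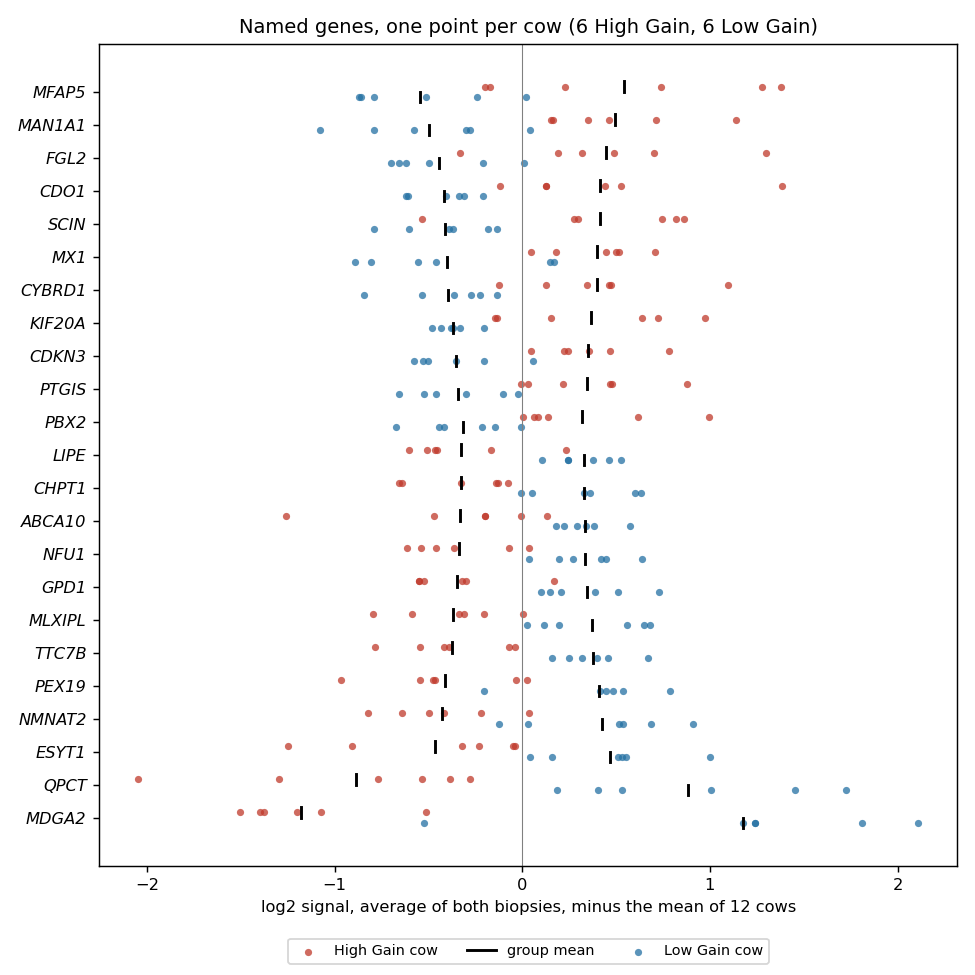
Averaged log2 signal of the 23 genes with the smallest p at a fold over 1.5 or the largest differences without overlap, given per cow relative to the mean of the 12 cows on the horizontal axis; red points are the 6 high gain cows, blue points the 6 low gain cows and black bars the group means. MDGA2 shows 1 low gain cow, at 8.04 before the mean was subtracted, beside the high gain cows and 5 far above them.

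Further genes without overlap and with lower values in high gain cows included MLXIPL, which encodes ChREBP, a transcription factor that turns on fat synthesis genes in response to glucose. MLXIPL ran from 8.91 to 9.70 in the high gain cows (median 9.38) and from 9.73 to 10.4 in the low gain cows (median 10.1). ESYT1, a tether between the endoplasmic reticulum and the plasma membrane, ran from 14.3 to 15.5 and from 15.6 to 16.6, with medians of 15.3 and 16.1. Their differences were -0.74 and -0.93, so that ESYT1 was 1.91-fold lower in value in the high gain cows. CHPT1, which makes phosphatidylcholine, had a difference of -0.65, and ABCA10, a transporter of the ABC family, one of -0.67. The groups of both were apart as well, but for ABCA10 the gap was narrow and 1 high gain cow lay far below the rest, at 12.3 against a median of 13.3.

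With higher values in high gain cows and no overlap stood MAN1A1, a mannosidase of the Golgi that trims N-linked sugars. Its averages were 11.9 at the lowest, 12.1 at the median and 12.9 at the highest in the high gain cows, and 10.7, 11.3 and 11.8 in the low gain cows. The difference was 0.99 (standard error 0.20, adjusted p = 0.467 in limma). CYBRD1, a ferric reductase of the plasma membrane, had averages of 11.1 to 12.3 in high gain and of 10.4 to 11.1 in low gain cows, a difference of 0.79 (standard error 0.18) with the groups only just apart. CDO1, which oxidises cysteine, differed by 0.83, KIF20A, a kinesin of cell division, by 0.73, PTGIS, the prostacyclin synthase, by 0.69 and PBX2, a homeobox transcription factor, by 0.63. In CDO1 most of the width of the high gain group came from its highest cow, at 9.23 against a group median of 8.13.

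In 5 further genes with higher values 1 or 2 high gain cows reached into the low gain range. MFAP5, a protein of elastic microfibrils, differed by 1.09 (standard error 0.28), FGL2, a secreted fibrinogen-like immune regulator, by 0.89 (standard error 0.22) and SCIN, which severs actin filaments, by 0.82 (standard error 0.21). MX1, an antiviral GTPase made in response to interferon, differed by 0.80 and CDKN3, which dephosphorylates cell cycle kinases, by 0.70. On the other side GPD1, which makes the glycerol phosphate for triglyceride, differed by -0.69, NMNAT2, which makes NAD, by -0.85, PEX19, which brings membrane proteins to peroxisomes, by -0.82, and LIPE, hormone-sensitive lipase, by -0.65. Adjusted p of these 9 genes lay between 0.467 and 0.472 in limma. When 1 cow at a time was left out, each of the 73 named genes kept the sign of its difference in all 12 fits, and MDGA2 without L5 was the only one of these fits past an adjusted p under 0.05.

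Whether an averaged difference stood at both biopsies was read from a separate fit within each. At Adipose 1, 1231 clusters had higher and 1076 lower values in high gain cows at an unadjusted p under 0.05 (9.23% in all), and at Adipose 2, 658 and 1154 (7.25%), with 0 past an adjusted p under 0.05 at either. An unadjusted p under 0.05 with the same sign at both was found for 61 clusters higher (0.244%) and 77 lower (0.308%). The same 12 cows stand in both fits, so that these are not 2 independent tests. Of the 138 clusters, 108 carried a usable symbol, 46 higher and 62 lower, with a median size of difference of 0.51. In 23 of the 108 the averaged groups did not overlap, against 0.172% (higher) and 0.228% (lower) of all clusters. The 108 were picked by their differences in these same cows, so that groups apart in the average are more frequent among them by that choice.

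The genes that stood at both biopsies held members of several roles. MDGA2, QPCT, TTC7B, NFU1, GPD1, MLXIPL, NMNAT2, AQP7 and ESYT1 had lower values in high gain cows at each. AQP7, the channel through which adipocytes release glycerol, had differences of -0.87 and -0.49. For NFU1 they were -0.64 and -0.70, for MLXIPL -0.78 and -0.71 and for ESYT1 -0.91 and -0.95, so that these 3 varied little between the biopsies. CYBRD1 (0.77 and 0.82), MX1 (0.96 and 0.64), FGL2 (0.91 and 0.88), MFAP5 (1.01 and 1.16), CDO1 (0.68 and 0.98) and KIF20A (0.37 and 1.096) had higher values at each. KIF20A was among the genes whose size was unequal, with the larger difference at Adipose 2.

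**Figure D2:**
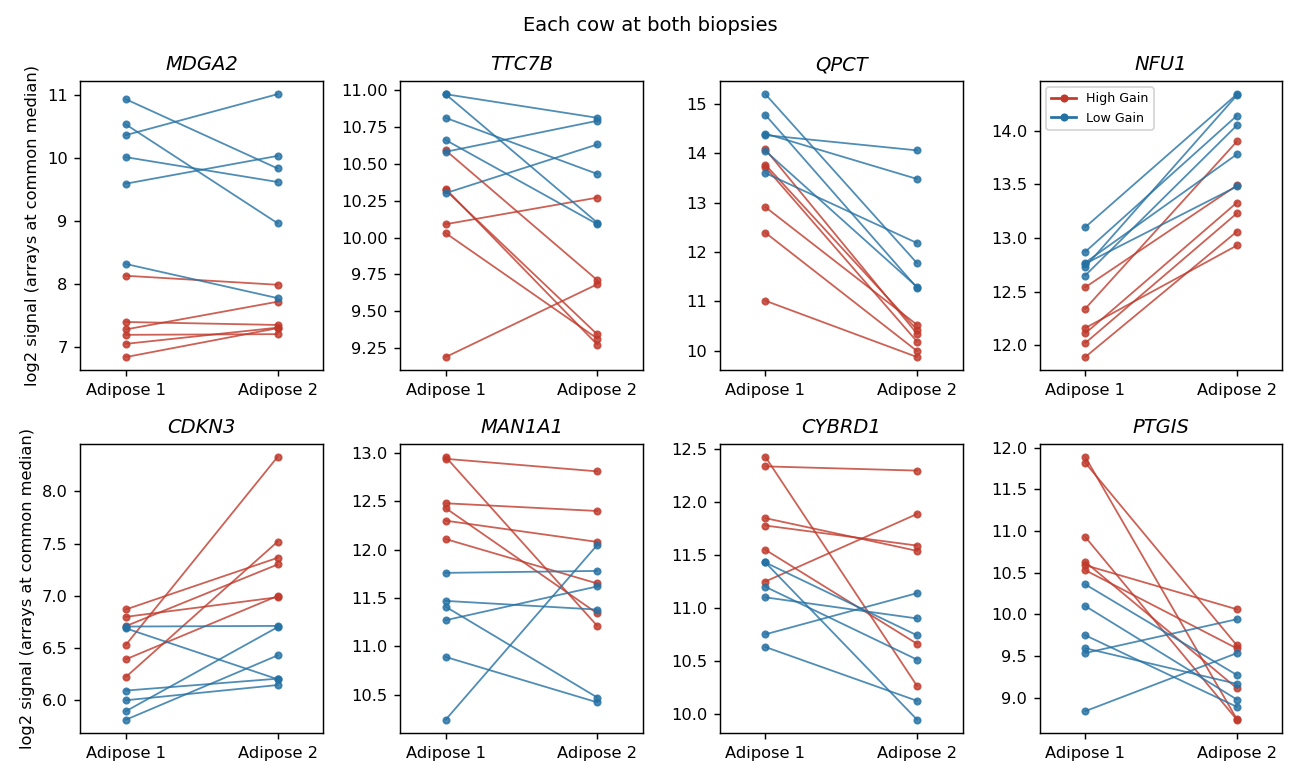
Log2 signal, with arrays at the common median, of the 4 genes of smallest p with lower values and the 4 with higher values in high gain cows among those of a fold over 1.5; each line joins the Adipose 1 and Adipose 2 array of 1 cow, red for high gain and blue for low gain. In QPCT all red points lie below the blue ones at Adipose 2, and the groups overlap at Adipose 1. In NFU1 all red points lie below the blue ones at Adipose 1, and the groups overlap at Adipose 2. In PTGIS the groups are apart at Adipose 1 and mixed at Adipose 2.

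Outside the rule for named genes a few others stood at both biopsies, and the ones given next were chosen after their values were seen. GGH, which trims folate polyglutamates, ran from 9.41 to 10.2 in high gain and from 9.95 to 12.2 in low gain cows, a difference of -1.26 (standard error 0.35), with -1.37 and -1.15 at the biopsies. HSPA12A, a distant member of the heat shock protein family, differed by -1.39, with -1.08 and -1.69, and ATP12A, a proton and potassium pump, by -1.19. TLR4, the receptor of bacterial lipopolysaccharide, differed by 0.56 with 0.76 and 0.36, and F13A1, the coagulation factor subunit also made by tissue macrophages, by 1.16 with 0.91 and 1.42. PAM, which amidates secreted peptides, differed by 0.50 and its averaged groups did not overlap.

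Averaging can also carry a difference from 1 biopsy alone. PTGIS had 1.37 at Adipose 1 and 0.01 at Adipose 2, PEX19 -1.45 and -0.19, and CHPT1 -1.05 and -0.26. TIMP4, an inhibitor of matrix proteases that is abundant in fat, had -1.36 and -0.21. GPAM, the first enzyme of triglyceride assembly, had -1.49 at Adipose 1, but at Adipose 2 all 12 arrays lay within 0.5 of the upper end of the scale, so that no difference can be read there and its averaged difference of -0.68 rests on Adipose 1. The difference between the 2 biopsies was tested per cow, and none of the 73 named genes passed an adjusted p under 0.05 in limma. The adjusted p of that change was 0.292 for PEX19, 0.306 for TIMP4, 0.383 for PTGIS and 0.581 for CHPT1.

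**Figure D3:**
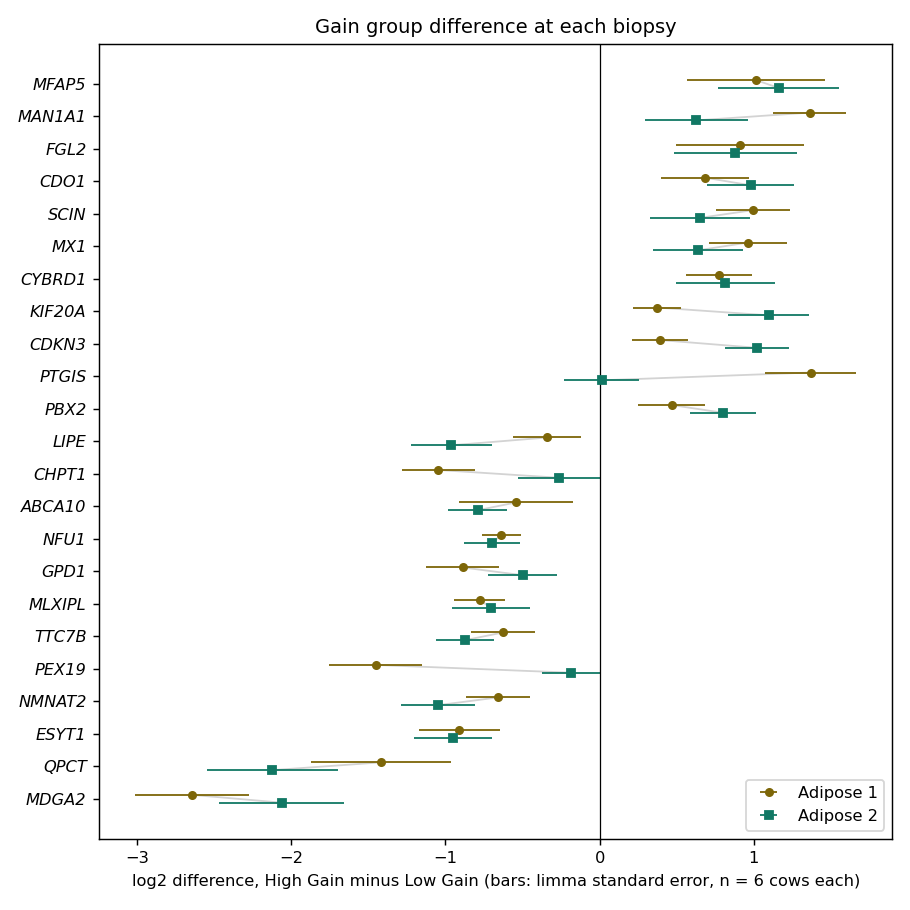
Log2 difference, High Gain minus Low Gain, at Adipose 1 (circles) and at Adipose 2 (squares) for the same 23 genes, with limma standard errors as bars (n = 6 cows in each group). MDGA2 lies at -2.64 and -2.06, while PTGIS lies at 1.37 and 0.01 and PEX19 lies at -1.45 and -0.19.

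Several genes of fat synthesis had lower values in high gain cows in the average. Of 17 genes of fatty acid synthesis measured, 6 were lower at an unadjusted p under 0.05 (35.3%, against 3.98% of all clusters) and 0 higher, with a median of -0.28 against -0.01 for all clusters, and 15 of 17 had a negative sign. Besides MLXIPL these were ACACA, which makes malonyl-CoA, at -0.63 (standard error 0.17), SREBF1, the sterol-regulated transcription factor of lipid synthesis, at -0.70 (standard error 0.20), ACSS2, which activates acetate, at -0.76, ACLY, ATP citrate lyase, at -0.85, and MID1IP1, which activates acetyl-CoA carboxylase, at -0.85. ACACA ran from 15.9 to 16.8 in high gain and from 16.6 to 17.5 in low gain cows, so that the groups overlapped. The median of the list was -0.55 at Adipose 1 and -0.05 at Adipose 2, the second with FASN and SCD at the end of the scale. MLXIPL, SREBF1 (-0.57 and -0.82) and ACLY (-0.70 and -1.001) were of like size at both, whereas ACACA (-1.18 and -0.08), ACSS2 (-1.49 and -0.04) and MID1IP1 (-1.65 and -0.05) were near 0 at Adipose 2, where 2 of the 12 arrays of ACSS2 were close to the end of the scale. FASN, the fatty acid synthase, had -1.20 at Adipose 1 and lay at the end of the scale on all 12 arrays of Adipose 2, which leaves no difference to read there. SCD lay at the end of the scale in every group mean and carries no usable difference.

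In triglyceride assembly 3 of 13 genes were lower (23.1%) and 0 higher, with a median of -0.22. They were GPD1, GPAM and AGPAT2, the acyltransferase of the next step, at -1.07 (standard error 0.32), with -2.06 at Adipose 1 and -0.08 at Adipose 2. GPD1 ran from 13.5 to 14.2 in high gain and from 14.2 to 14.8 in low gain cows, and only cow H2 reached into the low gain range. In lipolysis and its control 3 of 14 were lower (21.4%) and 0 higher, with a median of -0.20, namely LIPE, AQP7 and G0S2, an inhibitor of the first lipase of the pathway, at -0.99 (standard error 0.44). LIPE was the one with the larger size at Adipose 2, at -0.96 against -0.34. The count of lower lipolysis genes ran from 2 without cow H1 to 6 without cow H4.

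Uptake and oxidation of fatty acids each had 3 lower genes too, in longer lists. In uptake and activation 3 of 18 were lower (16.7%), with a median of -0.05: FABP5, a fatty acid binding protein, at -0.44, ACSL1, the main acyl-CoA synthetase of fat, at -0.51 (close to the end of the scale on 4 arrays of Adipose 2), and VLDLR, a lipoprotein receptor, at -0.50. The count of lower genes among the 18 ran from 0 without cow L2 to 4 without cow L6. In fatty acid oxidation 3 of 21 were lower (14.3%) and 0 higher, with a median of -0.22. CPT1B, a carnitine acyltransferase, differed by -0.46 at each biopsy, ACADL, a long-chain dehydrogenase, by -0.46 and SLC25A20, the carnitine carrier, by -0.38. The count for oxidation ran from 1 without H2 to 7 without L6.

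**Figure D4:**
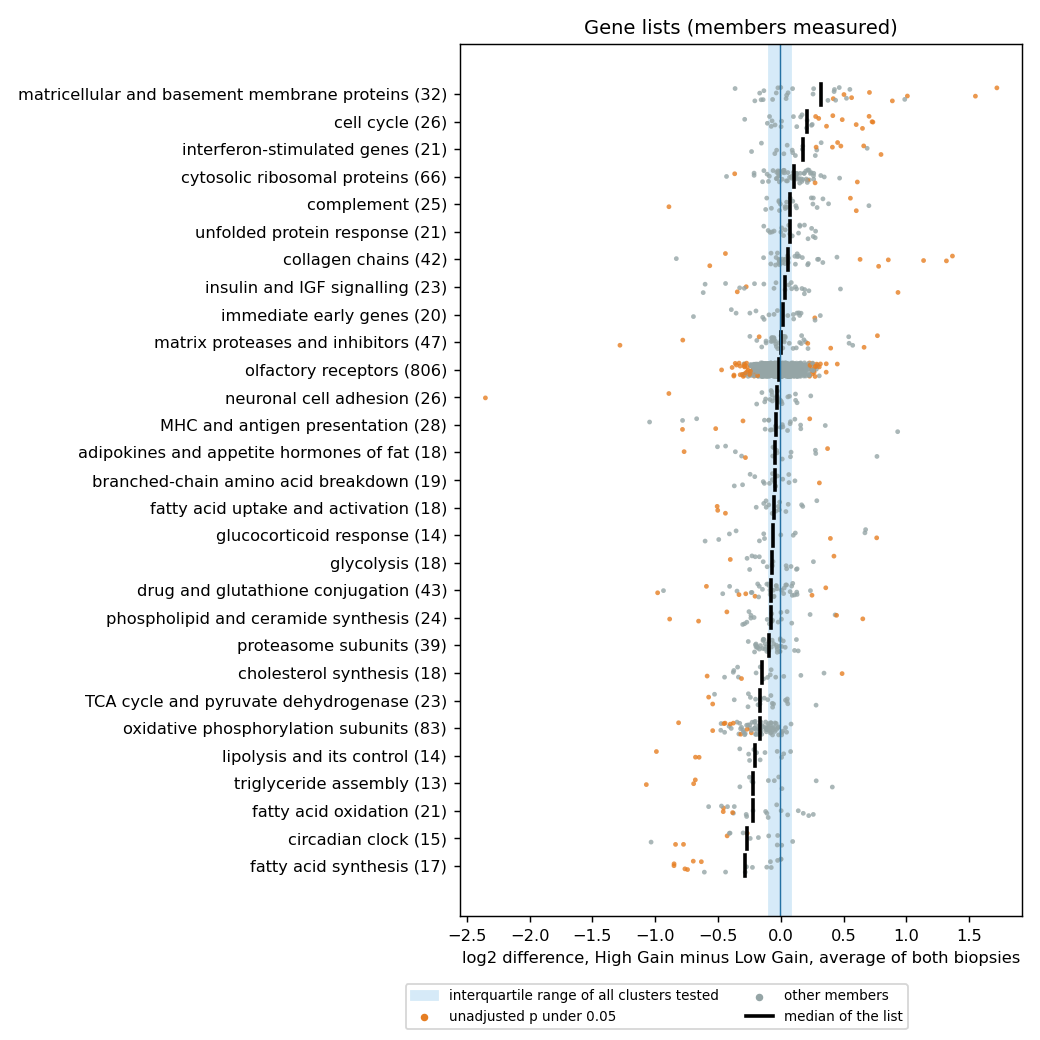
Log2 difference, High Gain minus Low Gain, averaged over both biopsies, of every measured member of 29 pathway lists (number measured in brackets); orange points had an unadjusted p under 0.05, black bars are list medians and the blue band is the interquartile range of all 24997 clusters. Fatty acid synthesis stands at the bottom with a median of -0.28, and matricellular and basement membrane proteins at the top with 0.32.

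Mitochondrial genes had small differences, most of them negative. Of 83 subunits of oxidative phosphorylation, 77 had a negative sign, 9 were lower at an unadjusted p under 0.05 (10.8%) and 0 higher, and the median was -0.16. NDUFB8 (-0.81), NDUFS8 (-0.45), NDUFA3 (-0.44) and NDUFS3 (-0.40), all of complex I, SDHC (-0.54) of complex II and COX5B (-0.38) of complex IV were among the 9. SDHC ran from 11.5 to 12.6 in high gain and from 12.15 to 12.96 in low gain cows. The list median was -0.37 at Adipose 1, where 24 were lower (against 1076 of all 24997 clusters). It was -0.01 at Adipose 2, where 1 was lower (against 1154 of all 24997). The count of 9 ran from 3 without cow H1 to 19 without cow L1. Of 23 genes of the TCA cycle and pyruvate dehydrogenase 18 had a negative sign and 2 were lower (8.70%, against 3.98% of all clusters). The 2 were SDHC and OGDH, the oxoglutarate dehydrogenase, at -0.57, and the count was 1 without H5 and 3 without H2. The mitochondrial assembly gene NFU1, which belongs to neither list, kept its difference at both biopsies.

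In the matrix, higher values were found for much of the matricellular list and for some collagens, but not for the collagen list as a whole. Of 32 matricellular and basement membrane proteins 23 had a positive sign, with a median of 0.32, 0.30 at Adipose 1 and 0.07 at Adipose 2. At an unadjusted p under 0.05, 8 were higher (25%, against 3.63% of all clusters) and 0 lower. The 8 were OGN, a small proteoglycan, ASPN, its relative, ELN, elastin, NTN4, a netrin of basement membranes, TNXB, tenascin X, VCAN, versican, and the thrombospondins THBS1 and THBS2. OGN had averages of 14.7 to 16.1 in high gain and of 13.8 to 15.0 in low gain cows, with medians of 15.1 and 14.2, a difference of 1.01 (standard error 0.27). OGN had 0.84 at Adipose 1 and 1.18 at Adipose 2, and ASPN 0.61 and 1.17, while NTN4 (1.04 and 0.09), TNXB (1.32 and 0.10), THBS2 (1.29 and -0.28) and THBS1 (3.26 and -0.16) had their differences at Adipose 1. Laminins and nidogens of the same list lay nearer 0, for example LAMA4 at -0.13 and NID1 at -0.14. The count of 8 ran from 6 to 13 when 1 cow was left out.

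Of 42 collagen chains 6 were higher (14.3%) and 2 lower (4.76%), with a median of 0.05. The fibrillar chains COL1A1 (1.37), COL1A2 (1.32) and COL3A1 (0.78), the fibril-associated COL12A1 (1.14) and COL14A1 (0.63), and COL6A3 (0.86), which forms the microfibrils around cells, were higher. COL1A1 ran from 15.0 to 17.9 in high gain and from 13.9 to 16.4 in low gain cows and had 0.91 at Adipose 1 and 1.82 at Adipose 2. COL15A1, a collagen beneath basement membranes, at -0.57 (standard error 0.19), and COL5A3, a minor fibrillar chain, at -0.44 (standard error 0.12), had lower values, and COL5A3 without overlap of the groups. The sign was thus not shared by all chains. Among proteases and their inhibitors 4 of 47 were higher (8.51%, against 3.63% of all clusters) and 3 lower (6.38%, against 3.98%). They were led by ADAMTSL4, a microfibril-binding protein, at 0.66 and TIMP4 at -0.78.

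Some markers of progenitors and fibroblasts also had higher values in high gain cows. Of 11 such markers 5 were higher (45.5%) and 0 lower, with a median of 0.41, 0.55 at each biopsy. FBN1, the fibrillin of microfibrils, differed by 1.24 (standard error 0.34), THY1, a surface glycoprotein of stromal cells, by 1.22 (standard error 0.39), MFAP5 by 1.09, PDGFRA, the receptor that marks progenitors, by 0.64 (standard error 0.18) and DCN, decorin, by 0.41, with 8 of its 12 Adipose 2 arrays close to the end of the scale. FBN1 ran from 14.7 to 16.1 in the high gain cows and from 13.5 to 15.7 in the low gain cows, where 1 cow lay near the high gain median of 15.5. The log2 of the summed signal of the 11 markers was 19.8 to 20.5 in high gain and 19.2 to 20.2 in low gain cows. The part of these cells in the matrix differences was not tested. PDGFRB (-0.09), DLK1 (-0.01) and CD34 (0.11), also of the list, lay near 0.

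Adipocyte markers leaned the other way. Of 15 markers 3 were lower (20%) and 0 higher, with 14 of 15 negative and a median of -0.20. The 3 were LIPE, AQP7 and CIDEA, a lipid droplet protein, which differed by -0.80 (standard error 0.22) and had -1.45 at Adipose 1 and -0.15 at Adipose 2. ADIPOQ, the adipokine adiponectin, differed by -0.03, PLIN1, the coat protein of lipid droplets, by -0.25 and PPARG, the master regulator of adipocytes, by 0.18. FABP4 and CIDEC lay close to the end of the scale on all arrays and ADIPOQ on 9 of 12 at each biopsy. The low gain mean of DGAT2, at 19.91, was also close to that end (19.93). Differences of FABP4 (-0.02), CIDEC (-0.03) and CFD (-0.01) were near 0 as well, so that such signs add little to the count of 14. The log2 of the summed signal was 21.9 to 22.4 in high gain and 22.3 to 22.4 in low gain cows. LIPE, AQP7 and PNPLA2 also belong to the lipolysis list and DGAT2 to triglyceride assembly, so that these counts share members. The part of adipocyte content in the lipid genes above was not tested. The count of lower adipocyte markers ran from 3 to 6 when 1 cow was left out, with 6 without cow H4.

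**Figure D5:**
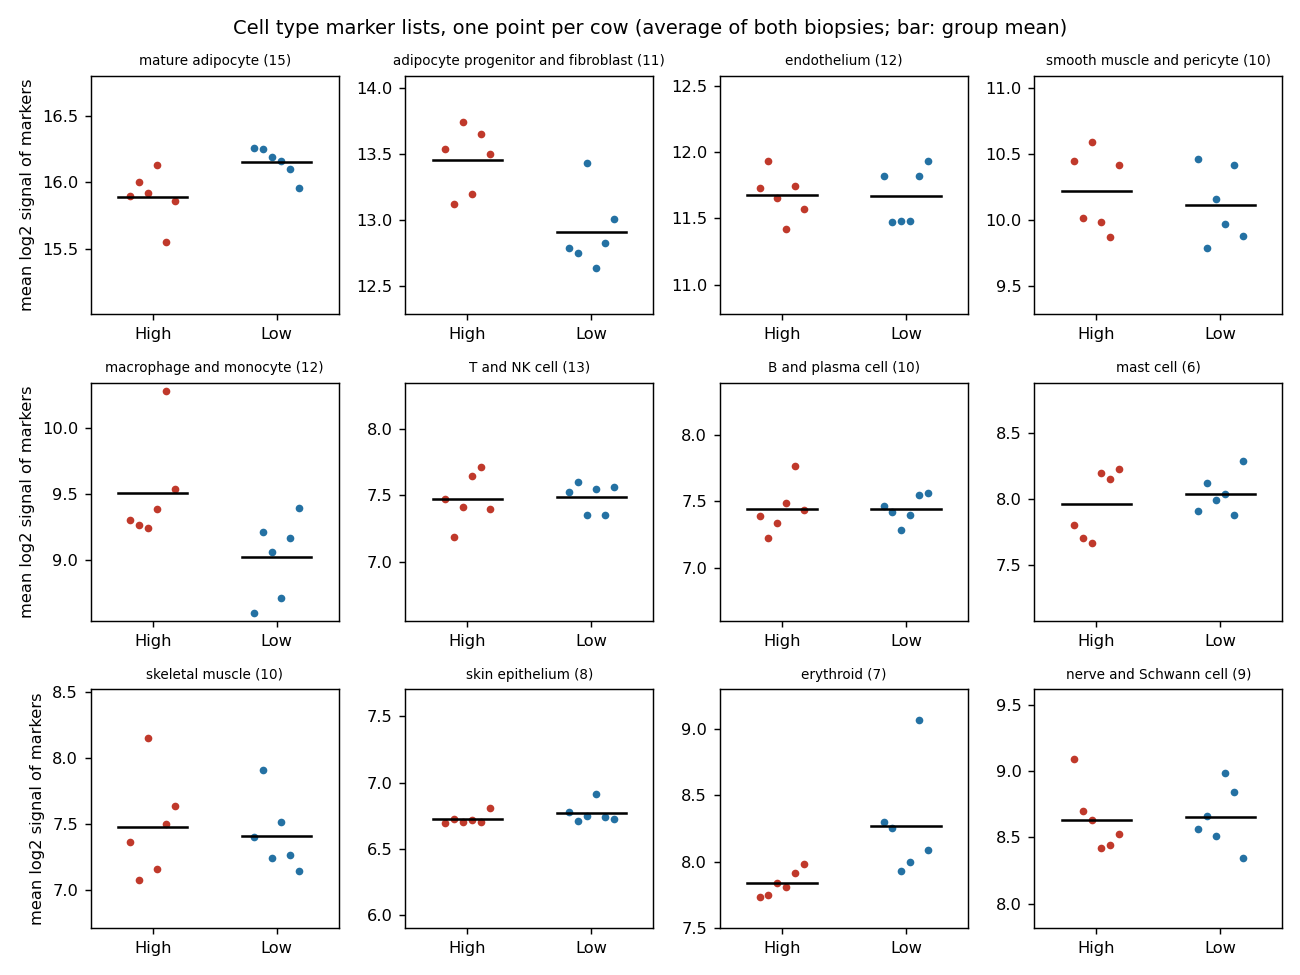
Mean log2 signal of 12 cell type marker lists (number of markers in brackets) in each cow, averaged over both biopsies, with bars at the group means; every panel spans the same height on the log2 scale. The macrophage list shows H5 at 10.3 above the other high gain cows at 9.25 to 9.54, and the erythroid list L5 at 9.07 above the other low gain cows at 7.93 to 8.30.

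Among macrophage markers the higher values lay in high gain cows. Of 12 markers 6 were higher (50%) and 0 lower, with a median of 0.53, namely CD14, a receptor for lipopolysaccharide (0.61, standard error 0.16), CD163, the haemoglobin scavenger receptor (0.80, standard error 0.25), CD68 (1.04), C1QB (0.62), MSR1 (0.50) and ITGAM (0.46). CD14 ran from 10.1 to 10.9 in high gain and from 9.41 to 10.2 in low gain cows, with 4 of the 6 high gain cows above every low gain cow. AIF1 and MARCO, also of the list, had 0.18 and -0.14. The list mean was 9.25 to 10.3 in high gain and 8.60 to 9.39 in low gain cows, and the log2 of the summed signal 13.6 to 14.9 and 12.7 to 13.6. Cow H5 lay far above the rest, and without H5 the median was 0.35 with 11 cows. The median was 0.64 at Adipose 1 and 0.39 at Adipose 2. At the first, 7 markers were higher at an unadjusted p under 0.05 (against 1231 of all 24997 clusters), and at the second 0 (against 658).

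Interferon-stimulated genes had 6 of 21 higher (28.6%) and 0 lower, with a median of 0.18, of like size at the biopsies (0.17 and 0.14). They were MX1, GBP4, a guanylate-binding protein, at 0.48 (standard error 0.11), RSAD2, viperin, at 0.66, HERC6, a ubiquitin ligase, at 0.45, IFI27 at 0.41 and IFIH1, a sensor of viral RNA, at 0.28. MX1 ran from 9.92 to 10.6 in high gain and from 8.98 to 10.04 in low gain cows. MX2 (-0.05), USP18 (-0.23) and IRF9 (-0.15) had the other sign. The count ran from 3 to 7 when 1 cow was left out. Of 25 complement genes 2 were higher (8%, against 3.63% of all clusters) and 1 lower (4%, against 3.98%). Among them were CFB, complement factor B, at 0.56 and MASP1, a protease of the lectin pathway, at -0.89.

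Cell cycle genes had 10 of 26 higher (38.5%) and 0 lower, with a median of 0.21. Besides CDKN3 and KIF20A these were TOP2A, a topoisomerase of dividing cells (0.73, standard error 0.20), MKI67, the marker Ki-67 (0.65, standard error 0.17), the cyclin CCNA2 (0.60), the kinase CDK1 (0.41), KIF11, PRC1, PLK1 and MCM2. CDKN3 ran from 6.69 to 7.43 in high gain and from 6.07 to 6.71 in low gain cows, and 5 of 6 high gain cows lay above every low gain cow. Most of the list is dim, since 17 of 26 lay below the median cluster. The list median was -0.05 at Adipose 1, with 1 gene higher (against 1231 of all 24997 clusters). It was 0.37 at Adipose 2, with 11 higher (against 658 of all 24997). MKI67 (0.08 and 1.23), TOP2A (0.20 and 1.26) and CCNA2 (-0.01 and 1.21) thus came from the second biopsy, whereas MCM2, a replication helicase subunit, had 0.26 and 0.34. Of the 26 genes, 20 had a positive and 6 a negative sign, among the latter CCNE2 (-0.29), MCM3 (-0.09), MCM4 (-0.11) and MCM5 (-0.07). The count of higher genes stayed between 10 and 12 when any 1 cow was left out.

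Clock genes had 4 of 15 lower (26.7%) and 0 higher, with a median of -0.27 and -0.28 at each biopsy. HLF (-0.43) and DBP (-0.77), transcription factors that the clock drives, NPAS2 (-0.27), a partner of the core clock, and BHLHE41 (-0.84), a repressor of it, made up the 4. HLF ran from 10.2 to 11.2 in high gain and from 10.9 to 11.5 in low gain cows. The count was 0 without cow H2 and 6 without cow H4. Fat was collected from morning to midday, and the hour of each cow was not used here, so the part of sampling time was not tested. The core genes CLOCK (-0.18), ARNTL (-0.24) and PER2 (-0.03) did not reach an unadjusted p under 0.05.

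Hormone and signalling genes were mixed. RBP4, a retinol carrier secreted by fat, ran from 15.98 to 17.12 in high gain and from 16.7 to 17.6 in low gain cows, a difference of -0.77 (standard error 0.21), and LEP, leptin, had -0.44 (standard error 0.47). RARRES2, chemerin, had 0.37. Of 23 genes of insulin and insulin-like growth factor signalling 1 was higher (4.35%, near the 3.63% of all clusters) and 2 were lower (8.70%, against 3.98%). The higher 1 was IGFBP6, a binding protein for these factors, at 0.93 (standard error 0.35). Among the lower was INSR, the insulin receptor, at -0.35 (standard error 0.12). IGFBP6 overlapped widely, from 11.5 to 12.9 against 10.5 to 12.9. SLC2A4, the insulin-responsive glucose transporter, had -0.40 (standard error 0.18).

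Sphingolipid and phospholipid genes went both ways, with 2 of 24 higher (8.33%, against 3.63% of all clusters) and 3 lower (12.5%, against 3.98%). CERS2, the ceramide synthase of very long chains, ran from 12.6 to 13.9 in high gain and from 13.4 to 14.8 in low gain cows, a difference of -0.89 (standard error 0.27), with -0.66 and -1.11 at the biopsies. SPTLC2, a subunit of the first enzyme of sphingolipid synthesis, had 0.65 and SGPL1, which ends sphingolipid breakdown, -0.82, the last 1 chosen after its value was seen. Of these, SPTLC2 and SGPL1 stood at both biopsies.

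Larger folds were few. A fold over 2 together with an unadjusted p under 0.05 was met by 24 clusters with higher values (0.096%) and by 22 with lower values (0.088%), of which 18 and 16 carried a usable symbol. The largest with a gene symbol was SPP1, osteopontin, a secreted phosphoprotein of macrophages and matrix, chosen after its value was seen. SPP1 ran from 10.6 through a median of 13.9 to 16.7 in the high gain cows and from 7.86 through a median of 9.25 to 14.2 in the low gain cows. The difference was 3.44 (standard error 1.17, adjusted p = 0.538 in limma), or 10.9-fold, with 3.42 at Adipose 1 and 3.47 at Adipose 2, and the groups overlapped. Single cows changed much between the biopsies, H1 from 16.57 to 11.03, H4 from 14.3 to 8.94 and H6 from 11.9 to 18.06, while H5 had 13.98 and 13.97. The 2 like differences thus did not rest on the same order of cows. Among the other 17, VCAN, THBS1, COL1A1, COL1A2, FBN1, THY1, COL12A1, MFAP5, OGN and CD68 belong to the stromal and macrophage lists above. Others were TNFAIP6, a hyaluronan-binding protein of inflammation (1.37), ENPP1, a phosphodiesterase that restrains insulin signalling (1.20), and GFPT2, of the hexosamine pathway (1.07). With lower values stood ENPP5 (-1.79), TLR8 (-1.32), ADAMTS16 (-1.28), GPT2, an alanine aminotransferase of mitochondria (-1.15), LGALS12, a galectin of lipid droplets (-1.14), and LHCGR, a gonadotropin receptor (-1.14). The rest of the 16 were XPNPEP2 (-1.04), TRAK1, those named before, and HBB and HBA, given below. Of the 18 and 16, 3 higher (SPP1, MFAP5 and F13A1) and 6 lower (MDGA2, QPCT, ATP12A, GGH, HSPA12A and XPNPEP2) stood at both biopsies. The others did not, and ADAMTS16 ran from 14.47 to 15.93 in high gain and from 14.64 to 15.96 in low gain cows at Adipose 2. At Adipose 1 it ran from 8.25 to 12.11 and from 10.9 to 13.97. The count of higher ones was 38 without H4 and 43 without L3, and that of lower ones 39 without H4 and 44 without L6, whereas without L1 the counts were 18 and 16.

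Haemoglobin transcripts had lower values in high gain cows. HBB ran from 8.25 to 9.50 in high gain and from 8.71 to 13.5 in low gain cows, a difference of -1.62 (standard error 0.60), and HBA from 7.52 to 8.36 and from 8.18 to 10.9, a difference of -1.13. Cow L5 lay far above the rest in both, and without L5 the differences were -1.001 and -0.743. The other 5 genes of the erythroid list had no unadjusted p under 0.05, and the log2 of the summed signal of the list was 10.66 to 11.04 in high gain and 10.9 to 13.8 in low gain cows. L5 is also the cow of low MDGA2. Whether blood in the biopsy has a part in any value of L5 was not tested.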

How the data were processed

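RNA of 24 fat biopsies was measured on Bovine 1.1ST arrays. The deposited values are log2 signals per transcript cluster, which the authors made with Affymetrix Expression Console through normalization for GC count, signal space transformation and RMA (versions not given in the sources used here). Whether all arrays were normalized together is not stated. Of 26773 clusters, 1776 with identifiers below the lowest named cluster were left out. Arrays were shifted to a common median, the 2 arrays of a cow averaged, and the groups compared in R 4.3.3 by limma 3.58.1 (lmFit with eBayes, two-sided, Benjamini-Hochberg over all clusters). The array number limits precision. The script was tested on simulated data. The titles pair arrays by animal number. After the mean of each gain group at each biopsy was subtracted, same-cow arrays correlated at 0.03 to 0.34 (median 0.148). Different cows of 1 gain group had a median of -0.04, a value that this subtraction itself draws below 0. In 6 of the 12 cows the best match was their own array, so that the pairing is only weakly visible in the values.

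Named genes were the 10 of smallest p in each direction with a fold over 1.5, the 6 largest differences in each direction without overlap, and up to 2 of smallest p in each list, among clusters with 1 symbol. Further list members were named after their values were seen. Members and lists were chosen with earlier results of these data known. Each gene stood in a list by its brightest cluster. Replicates were separate cows.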

Additional observations from a re-analysis of the deposited data

Results flagged for a closer look

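Of 228 sets of 6 values examined, 18 held a cow whose gap to the nearest other value exceeded Dixon's critical value for 6 samples, where chance gives about 1 in 20. Among named genes these were MDGA2 in L5 at 8.04 (other low gain cows 9.75 to 10.7), HBA in L5 at 10.9 (8.18 to 8.95), HBB in L5 at 13.5 (8.71 to 10.4) and NPAS2 in L1 at 7.66 (7.93 to 8.07). In the high gain group they were GPD1 in H2 at 14.2 (13.5 to 13.8), NDUFS8 in H2 at 12.2 (11.5 to 11.7), COL5A3 in H5 at 9.98 (10.5 to 10.6) and RARRES2 in H1 at 10.3 (9.75 to 9.93).

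The mean log2 signals of lists made up the other 10 cases. The macrophage list in H5 was at 10.3 (other high gain cows 9.25 to 9.54) and the complement list in the same cow at 9.73 (9.19 to 9.34). Cow H4 was high in insulin signalling at 11.7 (11.4 to 11.5) and low in ribosomal proteins at 13.4 (13.7 to 13.9), while L4 was high in ribosomal proteins at 13.9 (13.6 for the nearest). Cow H2 was high in the unfolded protein response at 11.9 (11.2 to 11.4) and H1 low in the glucocorticoid response at 11.3 (11.9 to 12.2). The erythroid list in L5 was at 9.07 (7.93 to 8.30), and the skin epithelium list was at 6.80 in H6 (6.69 to 6.73) and 6.91 in L4 (6.71 to 6.77).

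The gain difference itself differed between the biopsies at an adjusted p under 0.05 in limma for 5 clusters, CYYR1, JAM2, CAVIN3, SLC29A1 and SORBS2. All 5 had positive differences at Adipose 1 (0.42 to 0.87) and negative ones at Adipose 2 (-0.66 to -0.94), and averaged differences between -0.17 and 0.10. JAM2, an adhesion molecule of endothelial junctions, had 0.87 and -0.66 (adjusted p = 0.0378 for the change). The endothelial marker list had medians of 0.36 and -0.46, and its part in these 5 values was not tested.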

How the results depend on the processing

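The count of 0 clusters past an adjusted p under 0.05 was 3 with the cow as a replicate block over 24 arrays and 0 to 2 with 1 cow left out. The 3 came from a fit that took the 24 arrays as nearly separate. With clusters under the median level left out, fewer clusters were tested, and 553 higher and 535 lower remained at an unadjusted p under 0.05, and 28 higher and 24 lower without overlap of the groups. At a fold over 2, Adipose 1 arrays alone gave 81 higher and 94 lower and Adipose 2 arrays alone 43 higher; with 1 cow left out the counts were 18 to 43 higher and 16 to 44 lower. Groups without overlap numbered 58 to 129 higher and 76 to 137 lower with 1 cow left out, where fewer cows make overlap rarer. Other alternatives of these counts (no centring, another percentile, quantile normalization, prior, array weights, no clusters that reached the top of the scale, all clusters of the table and the unmoderated one-way test) moved none of them by over 1.5 times.

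Of 937 values of the 73 named genes under settings other than a left-out cow, 6 had the opposite sign, all from 1 biopsy alone: at Adipose 2, GPAM 0.13 (all 12 arrays at the upper end of the scale, so that neither its sign nor its size can be read), SC5D 0.18, MT2A -0.14 and TEK -0.23, and at Adipose 1, TAPBP 0.0603 and BCAT2 -0.17. Of 902 list medians under all alternatives 13 moved by over 1 SD of the list mean between cows; the cause was not tested. With 6 cows in each group, differences near the median standard error of 0.12 could not be told from 0, and over all 12 averages no difference of any size passed an adjusted p under 0.05.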

Other observations

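Endothelial markers had no averaged difference to speak of in count. Their median was 0.01, since their medians at the biopsies had opposite signs. At an unadjusted p under 0.05 in limma 1 of 12 was higher (8.33%). TEK, the angiopoietin receptor of vessels, was that 1, at 0.42 (1.07 at Adipose 1 and -0.23 at Adipose 2). ANGPT1, its ligand, had lower values in high gain cows at both biopsies, at -1.22 and -0.66. Smooth muscle and pericyte markers had 0 of 10 past that limit in either direction (median 0.10). For all lists of this section, the shares over all clusters were 3.63% higher and 3.98% lower.

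Markers of other cells were without members past an unadjusted p under 0.05 in T and NK cells (0 of 13), B and plasma cells (0 of 10), mast cells (0 of 6), skeletal muscle (0 of 10), skin epithelium (0 of 8) and nerve and Schwann cells (0 of 9), with medians of list differences between -0.08 and 0.07. Most of these markers were dim, with 12 of the 13 T and NK cell markers below the median cluster, so that small differences in these cells were not detectable.

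Glucocorticoid response genes had 2 of 14 higher (14.3%) and 0 lower (median -0.06). The 2 were the metallothioneins MT2A at 0.76 and MT1A at 0.40, which bind zinc and copper. MT2A had 1.67 at Adipose 1 and -0.14 at Adipose 2. Cytosolic ribosomal proteins had 3 of 66 higher (4.5%, near the share of all clusters) and 1 lower (1.5%), with a median of 0.10. The count of higher ones ran from 0 without H5 to 13 without H4. RPL5 differed by 0.27 and RPL28 by -0.37. Proteasome subunits (0 of 39, median -0.09) and the unfolded protein response (0 of 21, median 0.07) had no member past that limit.

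Cholesterol synthesis had 1 of 18 higher (5.56%) and 2 lower (11.1%), with a median of -0.15. The 2 lower were IDI1, an isoprenoid isomerase, at -0.59 and SC5D, a late desaturase, at -0.31. Breakdown of branched-chain amino acids had 1 of 19 higher (5.26%), BCAT2, at 0.31 (median -0.05). Glycolysis had 1 of 18 higher (5.56%), the phosphofructokinase PFKP at 0.42, and 1 lower (5.56%), SLC2A4 (median -0.07). Drug and glutathione conjugation had 2 of 43 higher (4.65%) and 5 lower (11.6%), with a median of -0.08. Among the 5 were MGST3, a microsomal glutathione transferase, at -0.59 and SULT4A1, a sulfotransferase-like protein, at -0.33 without overlap of the groups.

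Antigen presentation had 1 of 28 higher (3.57%), DSB, at 0.23, and 3 lower (10.7%), with a median of -0.04. Among the 3 was TAPBP, which loads peptides on class I molecules, at -0.30. Class genes of this region are similar in sequence, so that their clusters may share signal. Immediate early genes had 1 of 20 higher (5%), ATF3, at 0.27 (median 0.01), and adipokines 1 of 18 higher (5.56%) and 2 lower (11.1%, median -0.04). Of 26 genes of neuronal cell adhesion 2 were lower (7.69%), MDGA2 and SLITRK4 at -0.89 (median -0.03). Of 806 olfactory receptors, 753 lay below the median cluster, 19 were higher (2.36%) and 30 lower (3.72%), close to the shares of all clusters, with a median of -0.02. OR4F69 at -0.36 and OR51A57 at -0.39 led them.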
